A study of Mus musculus with 12 samples.

Results

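The Gimap genes of mouse chromosome 6 are a run of 8 neighbouring genes, Gimap8, Gimap9, Gimap4, Gimap6, Gimap7, Gimap1, Gimap5 and Gimap3 in chromosomal order. Their accessible chromatin was read from a master list of ATAC-seq peaks, in which each peak carries the name of the gene with the nearest transcription start site (TSS). The members were all peaks whose nearest gene was one of these 8 genes, which gave 23 of the 84243 peaks. ATAC-seq marks open chromatin by letting a transposase insert sequencing adapters where DNA is not covered. The list was made from 12 samples of sorted cells from untreated wild-type C57BL/6 mice (8 to 12 weeks old), in 6 groups of 2. The groups were hematopoietic stem cells (HSCs), megakaryocyte progenitors (MkPs), erythroid progenitors (EPs), granulocyte/macrophage cells (GMs) and B cells, all sorted from bone marrow by surface markers, and T cells, which the labels place in the thymus. The deposited list pools the 6 cell types and does not say in which of them a peak was found. It holds no reads per sample, so depth is unknown, no value has an error between replicates, and the labelled cell types could not be checked against their markers.

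GIMAP proteins (GTPases of the immunity-associated proteins) share a GTP-binding domain and are found mainly in lymphocytes, where several members anchor in membranes of the cell interior. Gimap5 is required for the survival of T cells, and Gimap3 is its close relative with an overlapping role. Gimap1 is needed for mature T and B cells, whereas Gimap4 promotes the death of T cells. Gimap6 has been tied to autophagy, and Gimap7 can stimulate the GTPase activity of a relative by pairing with it. An ATAC-seq peak at a TSS marks an open promoter, and peaks elsewhere mark candidate enhancers and insulators, here called non-promoter peaks.

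The sequences that the results turn on are promoters and peak centres from the GRCm38 (mm10) assembly. The promoter windows are from RefSeq and run from 250 bases before the TSS to 50 bases after it, with the TSS at base 251. Capitals mark exact matches of the short strings searched for, which are spelled out with the motif results. Gimap4 is shown since it was the only member without a promoter peak (chr6:48684328-48684627, plus strand). Gimap6 is shown since its peak was centred closest to the TSS (chr6:48708195-48708494, minus strand), Gimap7 for a STAT string next to a peak centre (chr6:48718371-48718670, plus strand) and Gimap5 for its pair of ETS strings (chr6:48745947-48746246, plus strand).
Gimap4 promoter: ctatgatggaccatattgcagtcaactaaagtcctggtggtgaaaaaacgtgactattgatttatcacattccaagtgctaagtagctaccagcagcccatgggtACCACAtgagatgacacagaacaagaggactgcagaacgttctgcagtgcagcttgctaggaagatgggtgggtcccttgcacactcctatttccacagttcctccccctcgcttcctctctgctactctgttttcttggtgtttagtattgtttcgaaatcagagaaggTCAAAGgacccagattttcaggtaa
Gimap6 promoter: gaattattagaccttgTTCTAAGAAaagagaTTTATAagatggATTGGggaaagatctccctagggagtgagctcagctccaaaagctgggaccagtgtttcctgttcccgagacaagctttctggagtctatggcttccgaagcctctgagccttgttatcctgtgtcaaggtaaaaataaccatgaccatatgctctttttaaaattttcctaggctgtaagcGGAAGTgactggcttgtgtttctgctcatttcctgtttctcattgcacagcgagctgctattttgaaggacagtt
Gimap7 promoter: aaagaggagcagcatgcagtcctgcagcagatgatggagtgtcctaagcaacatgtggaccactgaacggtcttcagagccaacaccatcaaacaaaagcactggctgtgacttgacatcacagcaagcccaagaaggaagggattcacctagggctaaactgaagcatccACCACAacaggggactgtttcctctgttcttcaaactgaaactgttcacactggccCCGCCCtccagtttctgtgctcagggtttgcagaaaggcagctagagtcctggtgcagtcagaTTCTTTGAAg
Gimap5 promoter: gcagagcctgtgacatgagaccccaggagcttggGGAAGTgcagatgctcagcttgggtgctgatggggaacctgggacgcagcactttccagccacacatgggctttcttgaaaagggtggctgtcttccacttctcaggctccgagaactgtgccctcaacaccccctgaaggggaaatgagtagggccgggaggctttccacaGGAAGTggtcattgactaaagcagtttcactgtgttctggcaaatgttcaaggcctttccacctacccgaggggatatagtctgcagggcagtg
The Gimap4 window has a RUNX string upstream and a TCF/LEF string downstream of the TSS, both on the minus strand. In the Gimap7 window the last capitals hold a STAT string that contains a TCF/LEF string.

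The next sequences are the centres of 4 non-promoter peaks, all on the plus strand. The peak upstream of Gimap8 (chr6:48645785-48645905) and the peak upstream of Gimap3 (chr6:48772154-48772274) are the peaks with a CTCF string, and only that string is in capitals in them. The peak upstream of Gimap9 (chr6:48666184-48666304) has a RUNX and an ETS string that abut, and the peak downstream of Gimap6 (chr6:48700249-48700449) has 3 ETS strings.
Peak upstream of Gimap8: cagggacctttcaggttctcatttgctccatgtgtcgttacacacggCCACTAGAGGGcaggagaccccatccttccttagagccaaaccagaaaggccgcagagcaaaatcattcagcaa
Peak upstream of Gimap3: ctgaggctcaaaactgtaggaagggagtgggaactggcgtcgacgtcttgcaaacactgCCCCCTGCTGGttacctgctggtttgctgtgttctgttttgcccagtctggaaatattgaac
Peak upstream of Gimap9: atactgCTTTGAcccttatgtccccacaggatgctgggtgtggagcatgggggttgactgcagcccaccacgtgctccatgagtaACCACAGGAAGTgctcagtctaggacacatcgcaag
Peak downstream of Gimap6: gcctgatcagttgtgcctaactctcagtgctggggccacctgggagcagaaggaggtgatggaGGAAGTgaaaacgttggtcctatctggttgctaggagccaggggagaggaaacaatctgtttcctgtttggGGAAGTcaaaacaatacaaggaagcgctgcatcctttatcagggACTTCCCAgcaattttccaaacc
The last capitals of the Gimap6 peak are an ETS string overlapping an Ikaros string.

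A promoter peak was found in 7 of the 8 Gimap genes, and Gimap4 was the exception. A promoter peak was defined as one centred within 500 bp of a TSS. Among 21000 protein-coding genes with curated RefSeq transcripts, 60.4% had such a peak, which is the background for the 7 of 8. The 7 promoter peaks were centred between 119 bp upstream and 24 bp downstream of their TSS, and each of them covered the TSS base. In the other direction, 7 of the 23 Gimap peaks were promoter peaks (30.4%, 95% Wilson interval 15.6% to 50.9%), against 15.6% of all peaks (13171 of 84243). The interval covers counting error only, and peaks of 1 cluster are not independent.

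**Figure D1:**
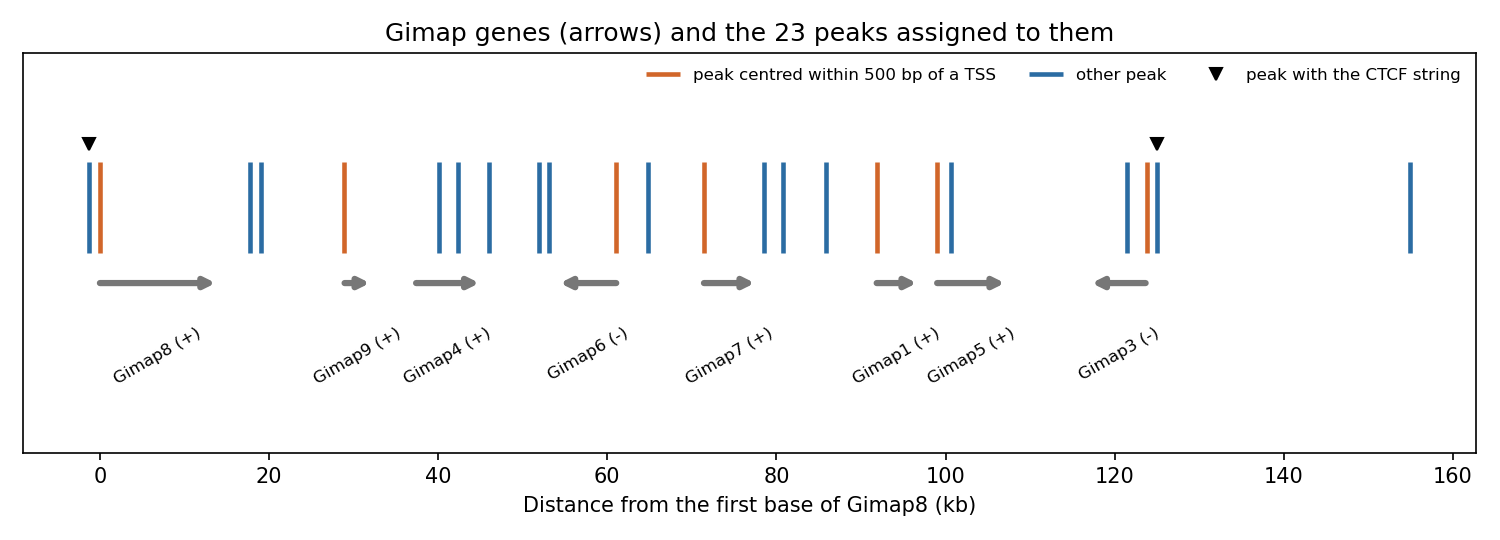
Map of the 8 Gimap genes (arrows, pointing in the direction of transcription) and the 23 peaks assigned to them (vertical lines at the peak centre), in kb from the first base of Gimap8. All genes but Gimap4 start at a promoter peak (orange), and both black triangles, which mark the peaks with a CTCF string, sit at the outer ends of the run.

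Gimap8, the largest of the genes at 13690 bp and 6 exons, lies at the left end of the run at chr6:48647186-48660875 on the plus strand. RefSeq gives it 2 curated start sites. It had 2 peaks, both centred to the left of its first base, of which the promoter peak reached into the gene. The promoter peak at chr6:48646928-48647426 was centred 57 bp upstream of the nearest TSS, and the other peak, at chr6:48645596-48646094, was centred 1389 bp upstream. No peak was centred within its 13690 bp, and the next peak to the right was 17747 bp away from the promoter peak.

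Gimap9 (chr6:48676121-48679116, plus strand, 2 exons) had 3 peaks. Its promoter peak at chr6:48675845-48676343 was centred 41 bp upstream of the TSS. By RefSeq this centre also lies inside another gene, Gm46958, so the peak cannot be given to Gimap9 alone. The other peaks, at chr6:48664675-48665173 and chr6:48665995-48666493, form a pair 1320 bp apart that lies 11211 and 9891 bp upstream, in the stretch between Gimap8 and Gimap9. In the GENCODE annotation this pair lies beside the start of a pseudogene, Gm44262, which is 936 and 384 bp from the centres.

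Gimap4 (chr6:48684578-48692062, plus strand, 3 exons) had 3 peaks, all downstream of its start. All 5 curated transcripts begin at 1 base, 48684578, and the nearest centres were 8484 bp upstream, at the Gimap9 promoter, and 2700 bp downstream. Intron 2 of Gimap4 held a pair of peaks, at chr6:48687029-48687527 and chr6:48689267-48689765, centred 2700 and 4938 bp into the gene. The third peak, at chr6:48692943-48693441, lay 1130 bp past the end of the gene. Reads that map to several places had been left out by the authors, which can hide peaks in duplicated sequence. Within 500 bp of the Gimap4 TSS, 8.14% of the 32-base words had another exact copy on the assembled chromosomes, against 7.84% at Gimap9, which has a peak, and 0% to 3.2% at the other 6 genes. The reads were paired and longer than these words, so the share of reads with another exact copy can be lower. The list had also been filtered after pooling. How far the missing peak depends on mapping or on the filter was not tested, and accessibility at this TSS was not measured here outside the list.

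Gimap6 (chr6:48701583-48708244, minus strand, 3 exons) had 4 peaks, as many as Gimap3 and more than the other members. Its promoter peak at chr6:48707992-48708490 was centred 3 bp from the TSS. A peak at chr6:48711807-48712305 lay 3812 bp upstream. The remaining peaks, at chr6:48698853-48699351 and chr6:48700100-48700598, were 2481 and 1234 bp past the end of the gene, and so lie in the short stretch where the 3′ ends of Gimap4 and Gimap6 face each other.

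Gimap7 (chr6:48718621-48724636, plus strand, 2 exons) had a promoter peak at chr6:48718396-48718894, centred 24 bp downstream of the TSS. Its other 2 peaks, at chr6:48725420-48725918 and chr6:48727734-48728232, were 1033 and 3347 bp past the end of the gene. By RefSeq they are intergenic. GENCODE, however, has a transcription unit, Gm28053, that runs from 48718607 to 48752644 and spans Gimap7, Gimap1 and most of Gimap5, so that both peaks lie inside it. The GENCODE start nearest to the centre of the promoter peak, at 9 bp, is also one of Gm28053. That peak thus cannot be given to Gimap7 alone.

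Gimap1 (chr6:48739047-48743795, plus strand, 3 exons) had a promoter peak at chr6:48738812-48739310, centred 14 bp downstream of the TSS, and a peak 6018 bp upstream at chr6:48732780-48733278. GENCODE also has an antisense gene, Gimap1os, over the promoter peak, and ATAC-seq has no strand, so the peak cannot be given to either. Both Gimap1 peaks also lie inside Gm28053, which has the GENCODE start nearest to the centre of the promoter peak, at 4 bp. Gimap5 (chr6:48746197-48754200, plus strand, 3 exons) had a promoter peak at chr6:48745889-48746387, centred 59 bp upstream of the TSS, and a peak 1609 bp downstream, in intron 1, at chr6:48747557-48748055. Gimap1 and Gimap5 thus had 2 peaks each, as did Gimap8.

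Gimap3 (chr6:48764464-48770851, minus strand, 5 exons) closes the run on the right. Its promoter peak at chr6:48770721-48771219 was centred 119 bp upstream of the TSS, the farthest of the 7. Intron 2 held a peak at chr6:48768406-48768904, and a peak at chr6:48771965-48772463 lay 1363 bp upstream. The last peak, at chr6:48801875-48802373, was 31273 bp upstream, and it was the member peak farthest from its TSS. In the GENCODE annotation a long non-coding RNA gene, Gm30781, starts closer to the centre of this peak, at 3298 bp. Between the peak in Gimap5 and the peak in Gimap3 lay 20849 bp without a peak, the widest such stretch inside the run.

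**Figure D2:**
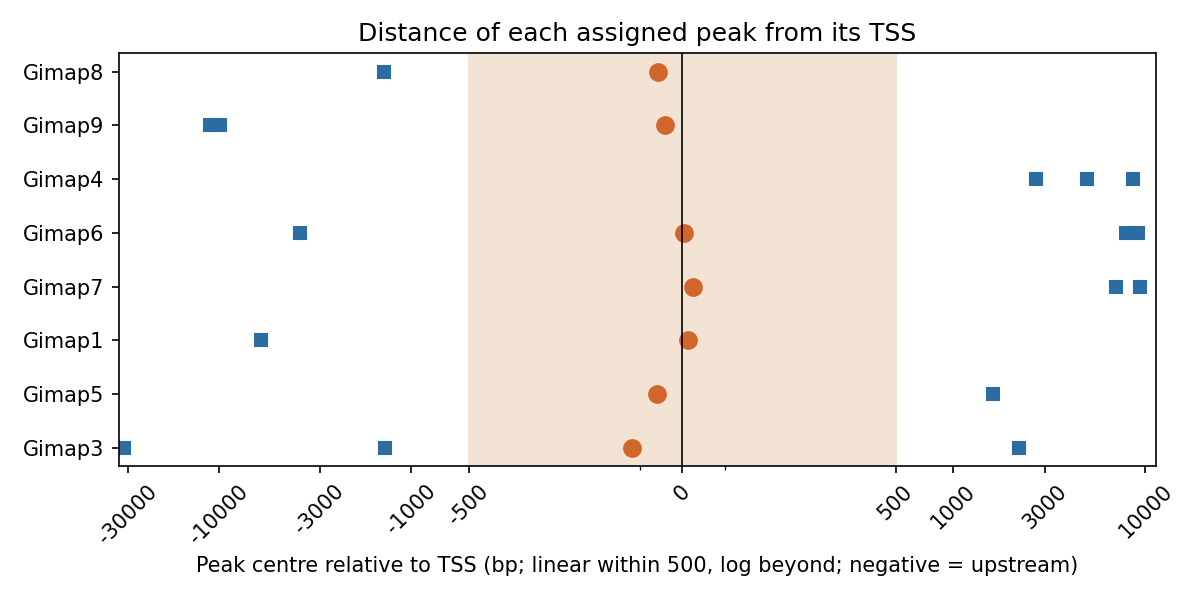
Distance in bp from the TSS to the centre of each of the 23 assigned peaks, 1 row per gene, with promoter peaks as circles and other peaks as squares. The axis is linear within 500 bp (shaded) and logarithmic beyond. Circles fall between 119 bp upstream and 24 bp downstream for 7 genes, and the nearest square of Gimap4 is at 2700 bp.

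Of the 16 non-promoter peaks, 7 lay upstream and 9 downstream of the TSS they were assigned to. Their distances ran from 1363 to 31273 bp with a median of 6533 bp. The median was 22261 bp for the 71072 non-promoter peaks of the list. The 8 genes lie within 123666 bp, so inside the run their spacing limits the distance to the nearest TSS, and the difference was not tested. By the annotation deposited with the peaks, 12 of the 23 were intergenic (37.6% of the list) and 4 were in introns (41.5% of the list). The assignment is by distance alone, so a peak can act on another gene than the one it is named for.

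The median number of peaks per gene was 3 per member (range 2 to 4), the same as the median of 3 over 16270 named protein-coding genes. The peaks lay close together. From the first base of Gimap8 to the last of Gimap3 are 123666 bp, in which 18 peaks were centred, or 14.6 per 100 kb. Chromosome 6 had 3.32 and the genome 3.09 per 100 kb, which makes the cluster 4.38 and 4.71 times as dense. Of 22029 windows of the same length across the genome, 2.03% held at least as many peaks, and of the windows that hold a protein-coding TSS, 4.06% did. Outside the run, the 50 kb on the left held 5 peaks and the 50 kb on the right held 4. The first 2 on the left and the first 2 on the right are the end peaks of Gimap8 and Gimap3 themselves.

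The promoters of the Gimap genes were poor in CpG dinucleotides, a kind of promoter that mostly lacked a peak in the list. CpG-rich promoters are typical of genes used in most cells, and CpG-poor ones of genes used in few. The ratio of observed to expected CpG was 0.178 and 0.107 in the overlapping windows of the Gimap8 start sites, 0.325 in Gimap9, 0.252 in Gimap4 and 0.286 in Gimap6. It was 0.104 in Gimap7, 0.257 in Gimap1, 0.174 in Gimap5 and 0.116 in Gimap3. All 9 windows were thus below 0.5, whereas the median over 21263 protein-coding promoter windows was 0.567 with quartiles of 0.226 and 0.827. Of all windows under 0.5, 22.3% had a promoter peak (2159 of 9685), against 83.8% of those at 0.5 or more (9704 of 11578). The 8 of 9 Gimap windows with a peak stand beside the 22.3%. Gimap4, which had no promoter peak in the list, was not the lowest in CpG, as 5 windows with a peak had a lower ratio.

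**Figure D3:**
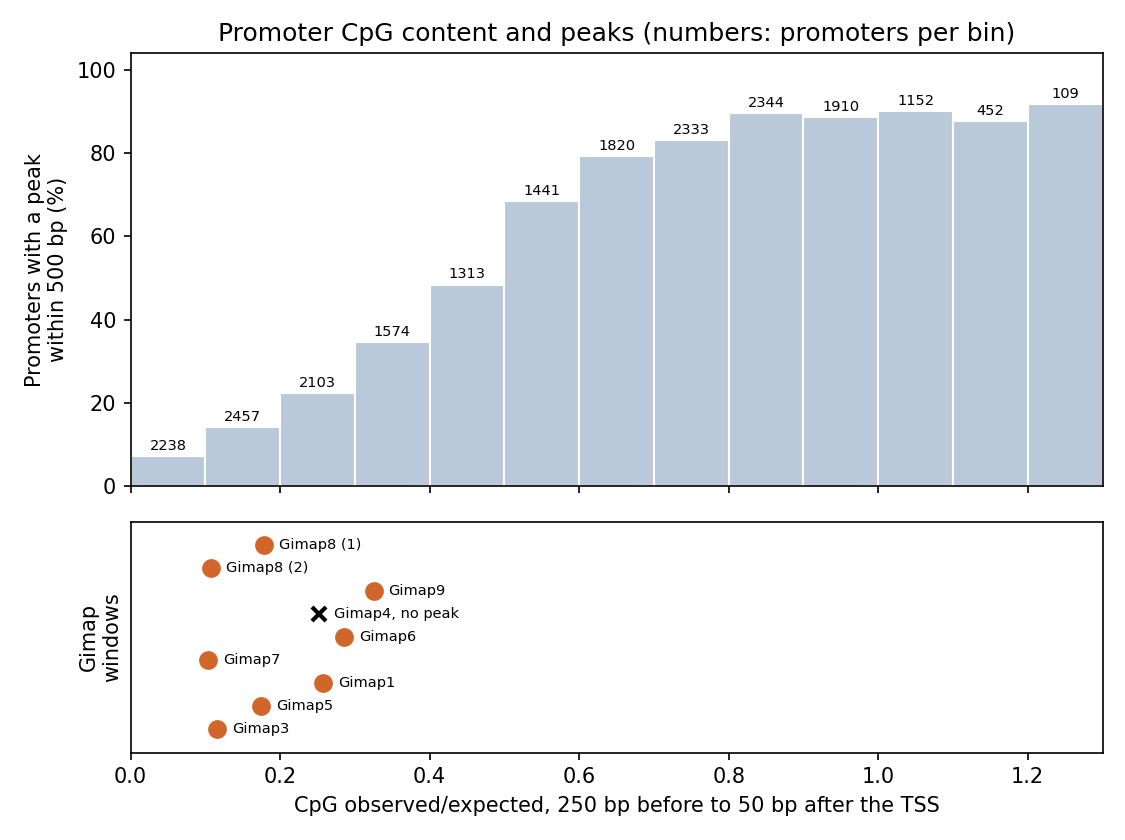
Upper panel, share of protein-coding promoter windows with a peak within 500 bp (%) in bins of the CpG observed/expected ratio, with the number of windows above each bar; 17 windows beyond the last bin are not drawn. Lower panel, the 9 Gimap windows on the same axis (circle, peak; cross, no peak), of which 8 have a peak although the bins they lie in, from 0.1 to 0.4, have shares of 14.2% to 34.6%.

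The 7 promoter peaks had a median GC content of 50.7%, from 43.3% at Gimap6 to 55.5% at Gimap5, against 63.3% for all promoter peaks. The 16 non-promoter peaks had a median of 48.7%, close to the 47.7% of the list. None of the 23 was annotated to a CpG island. LTR repeats, which are remnants of retroviruses, overlapped the centres of 3 by the annotation: the second intronic peak of Gimap4, the peak past the end of Gimap4 and the farthest peak of Gimap3. Peaks annotated to any repeat made up 15.1% of the list.

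Strings of 12 motif families of blood and core promoter factors were searched on both strands of the 23 peaks. Each string is given with its counts, N stands for any base, and CTCF was searched as its consensus of 11 bases. Strings of different families can overlap. Of the 23 peaks, 16 were non-promoter and 7 were promoter peaks, and the splits given below stand beside these counts. A match is a description of letters and does not show that the factor was bound, and a string that was not found says nothing about the factor.

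ETS strings (GGAAGT), which fit a large family of activators in blood cells, were in 12 of the 23 Gimap peaks (42.7% of the list). They lay in 4 promoter peaks and 8 others, and in peaks of 6 genes, all but the outermost, Gimap8 and Gimap3. Both peaks in intron 2 of Gimap4 had 1 close to the centre, at 17 and 11 bp. The peak 1234 bp past the end of Gimap6 had 3, at 35, 36 and 80 bp from its centre. RUNX strings (TGTGGT), for the RUNX factors of stem cells and T cells, were in 8 peaks (38.9% of the list), 6 of them non-promoter. In the peak 9891 bp upstream of Gimap9 a RUNX string (48666269 to 48666274) abutted an ETS string (48666275 to 48666280). The shares of all peaks with such arrangements of strings were not counted.

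Among strings of lymphoid factors, TCF/LEF (CTTTGA), named for effectors of Wnt signalling in T cells, was in 8 peaks (29.2% of the list) and 7 of these were non-promoter. Ikaros (TGGGAA), a regulator of lymphocyte development, had its string in 5 (37.1% of the list). The E2A E-box (CAGCTG), bound by regulators of early B and T cells, was in 3 (29.8% of the list). The IRF string (GAAANNGAA), of interferon response factors, was in 3 (16.3% of the list). The GATA string (AGATAA), of a family with members in erythroid, stem and T cells, was in 5 (24.1% of the list), all of them non-promoter peaks of Gimap4, Gimap6 and Gimap5.

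STAT strings (TTCNNNGAA), for factors that act downstream of cytokine receptors, were in 6 of the 23 peaks (14.1% of the list) and 4 of these were promoter peaks, at Gimap8, Gimap6, Gimap7 and Gimap3. At Gimap7 the string TTCTTTGAA lay 20 bp from the peak centre, 40 bases after the TSS. At Gimap3 the string TTCAGAGAA, in the direction of the gene, spanned the TSS itself, from 5 bases before it to 3 after. It lay 118 bp from the peak centre. The string of Gimap8 lay 141 bp from its peak centre, and those of Gimap6 lay at 177 and 233 bp. Within the central 200 bp, only 1 promoter peak, that of Gimap7, had a STAT string.

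Core promoter strings gave 12 peaks with a CCAAT box, the letters of its name (45.3% of the list), 8 with a TATA box, searched as TATAAA (21.0% of the list), and 4 with a GC box, searched as GGGCGG (24.1% of the list), which is bound by Sp factors. Of the 8 peaks with a TATA string, 6 were non-promoter, beside 16 of all 23 Gimap peaks.

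The CTCF string, of the factor that forms chromatin loops and insulators, was in 2 of the 23 peaks (7.68% of the list), and these were the non-promoter peaks just outside the ends of the run. The peak 1389 bp upstream of Gimap8 had CCCTCTAGTGG on the minus strand, centred within 8 bp of the peak centre. The peak 1363 bp upstream of Gimap3 had CCCCCTGCTGG on the plus strand, within 4 bp of the centre. The 18 peaks between the first base of Gimap8 and the last of Gimap3 held no exact match. With 1 mismatch allowed, the promoter peak of Gimap8 and a peak inside the run, at chr6:48664675-48665173 upstream of Gimap9, also had the string, so the position at the ends holds for exact matches only. Within 200 kb of the run, 4 of the 18 peaks of other genes also had the string. The position of the pair was noticed after the values were seen, and occupancy by CTCF was not measured.

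**Figure D4:**
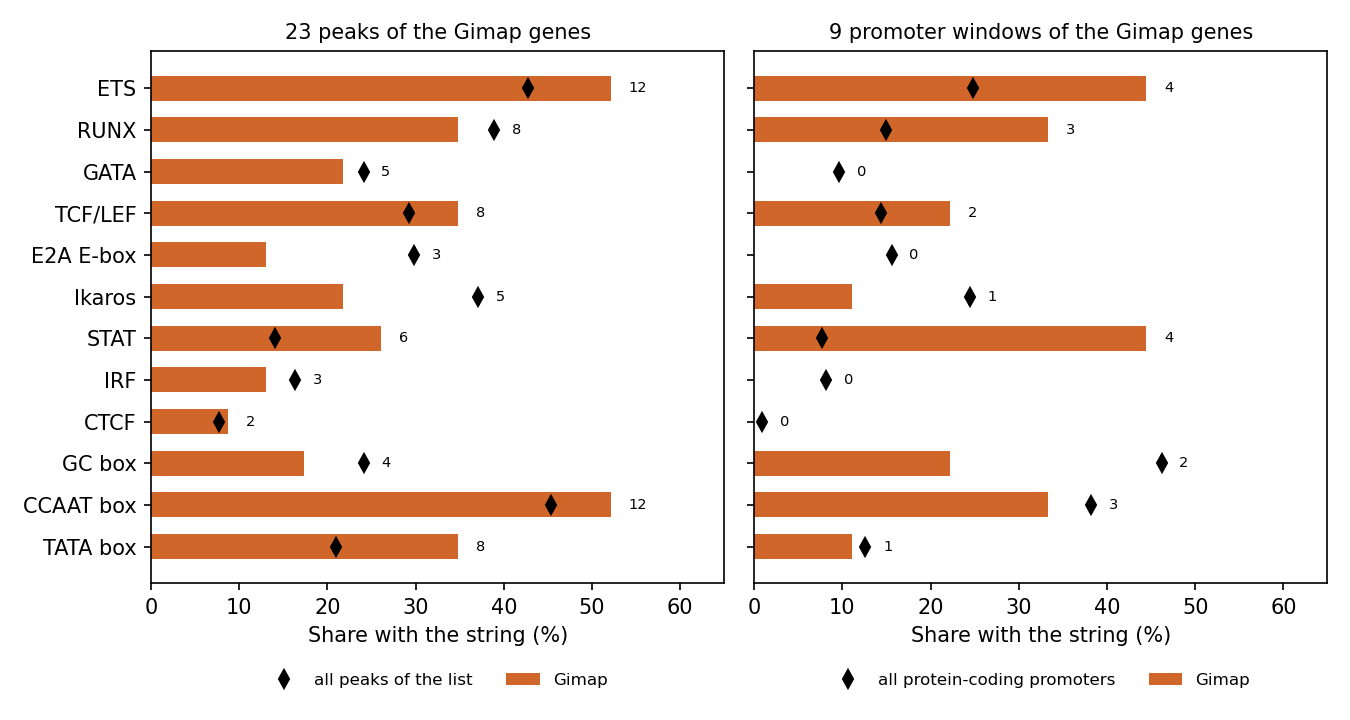
Share (%) of the 23 Gimap peaks (left) and of the 9 Gimap promoter windows (right) with an exact match of each string, as bars. The number beside each bar is that of the peaks or windows with a match. Diamonds give the share in all 84243 peaks or all 21263 protein-coding promoter windows. The STAT string in the promoter windows, 4 of 9, has a diamond at 7.69%. The diamonds are not matched to the low CpG content of the Gimap windows.

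The promoter windows, which include the Gimap4 start without a peak, gave 4 of 9 with an ETS string (24.8% of 21263 protein-coding windows). ETS lay within 50 bases of the TSS in 4 genes: 25 bases before it in Gimap6, 44 before it in Gimap5, at the base next to it in Gimap1 and 5 after it in Gimap9. The share of all protein-coding windows with an ETS string this close to the TSS was not counted. A STAT string was in 4 windows (7.69%), RUNX in 3 (15.0%), which were Gimap4, Gimap7 and Gimap1, and TCF/LEF in 2 (14.4%), which were Gimap4 and Gimap7. A CCAAT box was in 3 (38.2%), a GC box in 2 (46.2%), Ikaros in 1 (24.5%) and a TATA box in 1 (12.6%), that of Gimap6, 219 bases before the TSS. GATA (9.65%), E2A (15.6%), IRF (8.15%) and CTCF (0.879%) strings were in none of the 9. The Gimap4 window had neither an ETS nor a STAT string, and neither had the window of the first Gimap8 start site, which has a peak. The windows are few, those of Gimap8 overlap, the shares are not matched for CpG content, and no test was made.

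The 8 promoters shared little sequence with one another. In pairwise local alignments of 500 bases on both sides of the start sites, the longest match was between Gimap6 and Gimap3, the minus-strand genes, with 44 identical bases of 46 (95.7%). It lay downstream of both start sites, from base 319 to 364 in Gimap6 and from 228 to 273 in Gimap3.

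Other families of immune GTPases in tandem, the Gbp and Irg genes, had a promoter peak in 12 of 16 genes, with a median of 2 peaks per gene (range 1 to 8). These genes are induced by interferon and act against microbes within cells. The most peaks were at Irgm2 with 8, Gbp5 with 6 and Irgm1 with 5. Of the 16, 10 had only promoter windows under 0.5 in CpG, as the Gimap genes do, and 8 of these 10 had a promoter peak. Another list held genes that regulate lymphocyte survival (the Bcl2 family and the interleukin-7 pathway), including some that promote cell death, such as Bcl2l11. A promoter peak was found in 13 of 13 of them, with a median of 8 peaks per gene (range 1 to 27). The most peaks in it were at Bcl2l11 with 27, Il7r with 16 and Bcl2 with 13. In this list 4 genes were CpG-poor and all 4 had a promoter peak. Over all protein-coding genes, 60.4% had a promoter peak, and 22.3% of all windows under 0.5 in CpG had one. The Gimap median of 3 lay between those of the lists, and no test was made of the differences.

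Genes beside the run had promoter peaks as well. Repin1 and Zfp775 on the left had peaks centred 62 and 47 bp from their TSS, and the transcribed pseudogene AI854703 between them and Gimap8 had none closer than 1122 bp. On the right, a peak at chr6:48841129-48841627 was centred 4 bp from a TSS of Tmem176b and 105 bp from that of Tmem176a. These genes thus share this peak, and Gm7932 had a peak at 12 bp. By the deposited gene names, Zfp775 and Tmem176a had 0 peaks. The gap from Gimap3 to Tmem176b was 62960 bp.

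Most runs of neighbouring genes with like symbols had fewer peaks for their length. Among 230 other runs of at least 5 protein-coding genes that share a symbol stem, the median was 0.804 peaks per 100 kb and 59 runs had 0 peaks. These runs include many of olfactory (Olfr) and vomeronasal (Vmn) receptor genes, and a stem such as Gm does not name a gene family. The 230 are thus not a background of blood genes. Only 6 of the 230 were denser than Gimap. The 3 nearest in density were the Ccr chemokine receptor genes of chromosome 9 with 14.5 per 100 kb, the Ccl chemokine genes of chromosome 11 with 14.4 and the Ly genes of chromosome 17 with 13.7. A promoter peak was found in 3 of 5 Ccr, 1 of 5 Ccl and 2 of 6 Ly genes, against 7 of 8 Gimap genes (87.5%). A higher share than that of Gimap was found in 10 of the 230 runs.

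**Figure D5:**
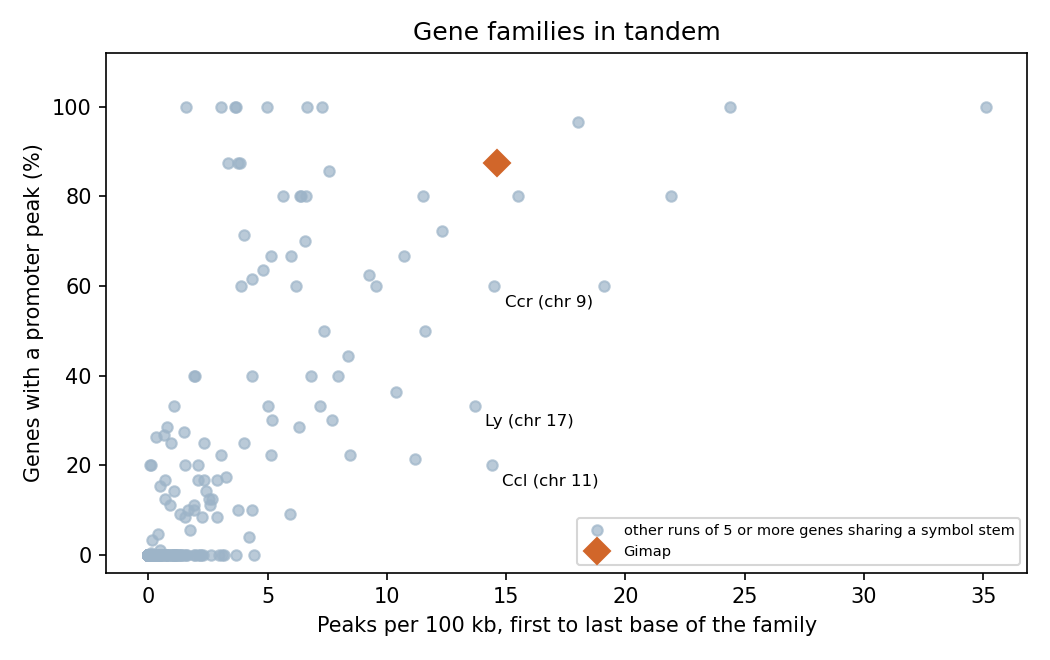
Peaks per 100 kb from the first to the last base of each run of at least 5 genes with a shared symbol stem (x) and the share of its genes with a promoter peak in % (y), with Gimap as a diamond at 14.6 and 87.5%. The labelled circles are the 3 runs nearest to Gimap in density, and all 3 have a lower share.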

How the data were processed

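ATAC-seq was performed on 12 samples, 2 replicates of each of 6 sorted cell types. The authors aligned reads to mm10 with the ENCODE pipeline, left out multimapping reads, took the reproducible peaks of each cell type, concatenated them, kept non-overlapping peaks by the filter of chromVAR, which used the fragments of each replicate, and annotated these with HOMER (version 4.10.2 by the submitters' processing notes). Each deposited peak was 499 bp long. A peak that this filter dropped is not in the list. The score deposited with each peak was 0 throughout and was not used. The list held 0 columns of per-sample values, so the planned count test between cell types was not run, and depth per sample is unknown. Replicates were compared nowhere.

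Member peaks were taken by the deposited gene name and distances from the deposited TSS distance. A limit of 500 bp from the centre to a TSS defined promoter peaks. For shares of genes, TSSs of curated RefSeq transcripts on GRCm38.p6, the build of the list, were used. Exact strings were counted per peak or per RefSeq promoter window, and CpG observed/expected was computed per window. Density was counted in tiled windows of the cluster length. The named genes were the 8 members, 3 neighbours on each side, the 3 genes with the most peaks of each comparison list, and the 3 families nearest in density. The members, lists and motifs were chosen with earlier results of these data known, and all values are descriptions beside a background share. Wilson intervals are at 95%. The counting code was tested on simulated data. Python 3.11.15, pandas 2.3.3, scipy 1.17.1, Biopython 1.88 and pyfaidx 0.9.0.4 were used. The alternatives concerned the promoter width, the assignment of peaks to genes, the windows, and the search of strings in the central 200 bp or with 1 mismatch.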

Additional observations from a re-analysis of the deposited data

How the results depend on the processing

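No paired analysis was possible because the list has no column for any sample or replicate, so no test or left-out replicate could be had either. A score threshold was not run, as the score was 0 in every peak. The number of members with a promoter peak was 7 under all other definitions of a promoter and TSS tried and 6 with a limit of 100 bp, which leaves out Gimap3. Peaks given to the members numbered 18 to 25 under other assignments, and 15.3 and 12.1 per 100 kb were found with 10 and 50 kb added on both sides. Among windows with a protein-coding TSS, 4.06% were as dense as the cluster. The median CpG ratio of the Gimap windows was 0.242 with 500 bp on both sides of the TSS.

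The counts of strings depended most on the search, and shares of all peaks or of all protein-coding windows are given in parentheses. With 1 mismatch allowed, the ETS (99.7%), RUNX (99.2%), GATA (95.5%), TCF/LEF (98.4%), E2A (97.2%), Ikaros (99.6%), STAT (89.2%), IRF (86.8%) and CCAAT (100%) strings were in all 23 peaks. The GC box was in 20 (92.0%), the TATA box in 19 (88.3%) and CTCF in 4 (28.9%). In the promoter windows, 1 mismatch gave 9 of 9 for ETS (96.1%), RUNX (90.6%), TCF/LEF (89.2%), Ikaros (96.1%), IRF (62.0%) and CCAAT (99.2%). It gave 8 for GATA (77.3%), STAT (68.5%) and the GC box (88.0%), 7 for E2A (87.6%) and the TATA box (64.3%), and 2 for CTCF (10.5%). In the central 200 bp of the peaks, exact CCAAT strings were in 7 (21.0%), TCF/LEF in 4 (12.6%) and STAT in 3 (5.31%). GATA (11.2%), Ikaros (15.1%) and the GC box (16.7%) were in 2 each, and E2A (16.7%), IRF (6.96%) and the TATA box (6.46%) in 1 each. In the same 200 bp, ETS was in 9 (28.6%), RUNX in 6 (23.2%) and CTCF in 2 (6.93%).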
